A study of Mus musculus with 6 samples.

Results

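A cluster of 6 SLAM family genes on mouse chromosome 1 was described in a map of 18 chromatin states. The map is labelled as wild-type H3.3 in hematopoietic stem cells (HSCs). The locus was taken as the gene records of Slamf1, Cd48, Ly9, Cd84, Slamf6 and Slamf7 with 20 kb added on each side, and as the interval that spans them. That interval ran from 171568613 to 171968958 on chromosome 1 (mm10) and was 400 kb long. It held 190 of the 850831 segments of the map, and the 6 genes were chosen by name from 21779 protein-coding genes. A stretch of 21.9 kb between Cd48 and Slamf1 lay in the interval but in none of the extended records.

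The series profiled the histone variant H3.3 by ChIP-seq in HSCs of adult C57BL/6 mice, sorted from the bone marrow. Its 6 libraries were 2 H3.3 ChIP libraries and 1 input from HIRA KO mice, and 2 H3.3 ChIP libraries and 1 input from WT mice. The labels give all of them the same treatment, 2 doses of 20 ug of poly(I:C) with cells taken 1 week after the first dose, given to delete Hira conditionally in blood cells. HIRA is the chaperone that places H3.3 into chromatin at active genes. No label names the Cre line behind the deletion or the surface markers of the sort, and the number of animals per library is likewise not stated there. The values analysed were the single wild-type map, which assigns a state number to each bin of 200 bp. It has no read counts, no replicate and no knockout column, so the depth is unknown, no value below carries a replicate error, no test was made between samples, and the HIRA KO libraries were not analysed here. Bins and genes of a map are not replicates, and the 6 genes share a single locus.

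SLAM receptors are immunoglobulin-type surface proteins of blood cells. Most members bind another copy of themselves on a neighbouring cell, and most signal through small adaptors of the SAP family that bind tyrosine motifs in the receptor tail. In mouse bone marrow the family is best known for sorting stem cells. Slamf1 encodes CD150, which is carried by long-term HSCs, whereas CD48, the product of Cd48, is absent from most of them and appears on progenitors.

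The states carry numbers and no names, so they were read from where they lay at genes over the whole map. Of 17492 protein-coding genes with a listed start, states 3, 4, 5 and 6 held 11.3, 9.76, 12.2 and 17.1% of the starts, between 32.4 and 58.1 times their share of bases. State 9 was also a state of starts, with 7.77% of them at 42.6 times its share. States 7 and 8 held starts at 0.181 and 0.122 times their share of bases, but 3′ ends at 8.58 and 4.15 times. Gene records were also enriched in states 7 and 8, at 2.42 and 2.50 times. State 18, the largest, covered 55% of the map and held starts at 0.352 times its share. States 1 and 2, which the track draws in the same colour, held starts at 1.30 and 1.66 times their share. The label was checked against marker genes. Of 11 HSC markers, Slamf1 among them, 10 met the rule of a record end in states 3 to 6. Of 22 genes of other cells or low in HSCs, Cd48 among them, 1 did, and 47.6% of all protein-coding genes did. By states 3 to 6 within 1 kb of a listed start, the counts were 7 of 7 and 3 of 14, against 52.5% of all genes. Cd48 was among these 3. These counts describe a chromatin state and not expression.

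All 6 genes carried a stretch of states 3 to 6, and the interval held no others. There were 6 uninterrupted runs of these states in the interval, 1 overlapping each gene record, which came to 1.5 runs per 100 kb, against 0.587 per 100 kb over the map. These densities are not adjusted for gene density, which was also higher here. The interval of 400 kb overlapped 8 protein-coding records, and the map of 2727 Mb held 21779. States 3 to 6 covered 1.75% of the interval and 1.13% of the map. Not all of these runs sat on the listed start. The RefSeq promoter table used here lists a start for 5 members, and Ly9 was described by its record ends. Of the 5 starts, 2 (those of Slamf1 and Slamf7) lay in states 3 to 6, against 50.3% of all starts. Within 1 kb of the start, 5 of 5 members had such a state, against 52.5% of all genes. By the ends of the gene records, 2 of 6 members (Slamf1 and Ly9) ended in such a state, against 47.6% of protein-coding genes. Some bin of states 3 to 6 lay in the record of 6 of 6 members, against 56.5% of protein-coding genes with records of all lengths.

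**Figure D1:**
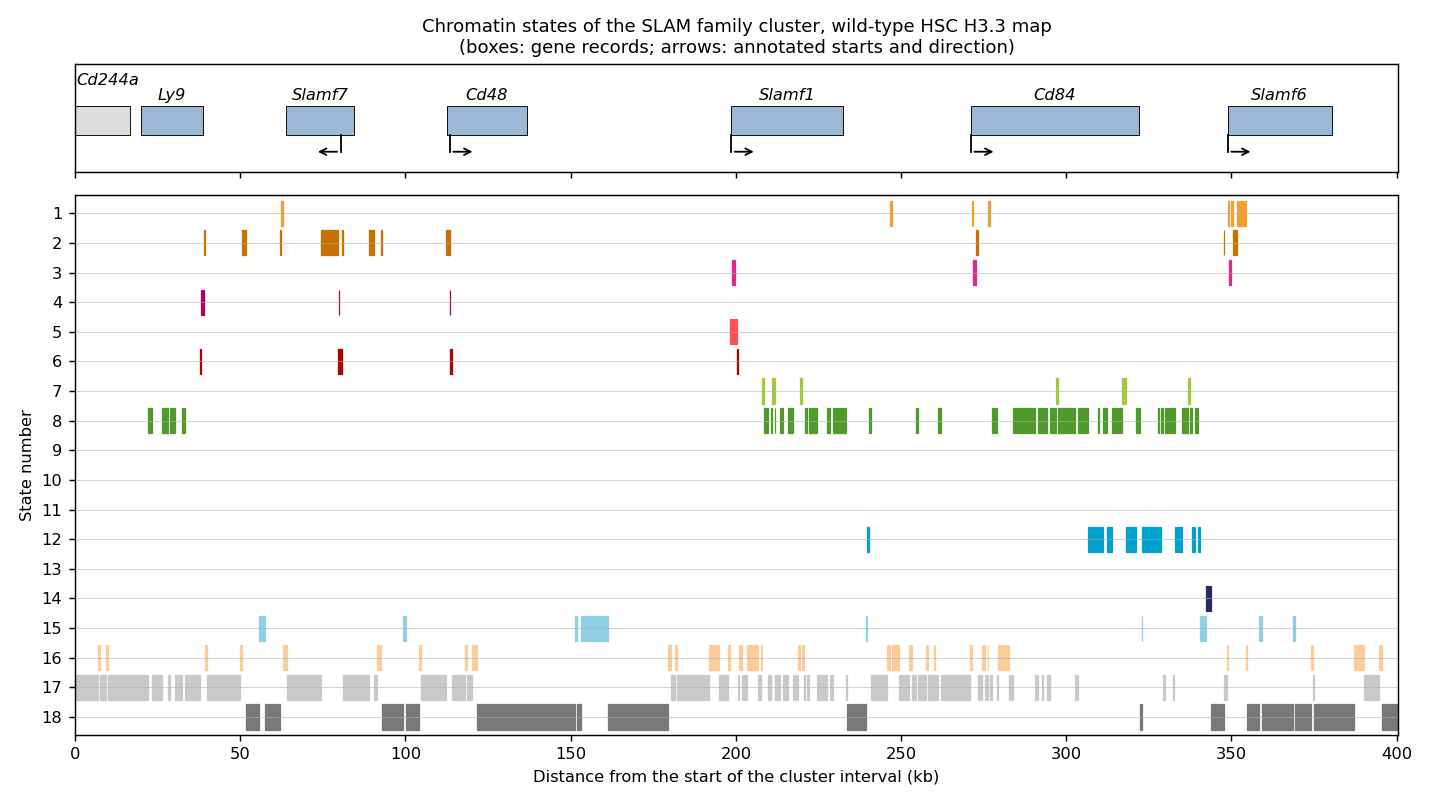
Chromatin states across the 400 kb interval of the SLAM family cluster: the horizontal axis is the distance in kb from the start of the interval, each row of the lower panel is a state number, and each coloured block is a segment (drawn slightly wide so that segments of 1 bin can be seen). Boxes in the upper panel are gene records and arrows the listed starts. Rows 3 to 6 hold 6 runs, 1 per member, rows 9 to 11 and 13 are empty, and row 8 is filled mainly over Slamf1 and Cd84.

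The run at Slamf1 was the longest and had a composition of its own. Slamf1 (gene ID 27218, chromosome 1, 171767131 to 171801184, plus strand) had its start in state 5, within a run of 2.6 kb from 171766801 to 171769400. The run held 1.6 kb of state 5 in 3 segments, 0.4 kb of state 3 and, at its downstream edge, 0.6 kb of state 6. No other member had any state 5. Among the 9189 genes with a run within 1 kb of the start, 62% had a shorter run and 29.8% a longer one, so the Slamf1 run was of common length.

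The other 5 runs were short. Ly9 and Slamf7 each had a run of 1.2 kb, Cd84 of 1.0 kb, Cd48 of 0.6 kb and Slamf6 of 0.4 kb, whereas the median over all genes with a run was 2.2 kb and the 10th percentile 1.4 kb. Longer runs were found at 92.8% of genes for Ly9 and Slamf7, 95.4% for Cd84, 97.9% for Cd48 and 98.6% for Slamf6. These 5 thus lay below the 10th percentile and Slamf1 between the median and the 75th percentile of 2.8 kb.

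**Figure D2:**
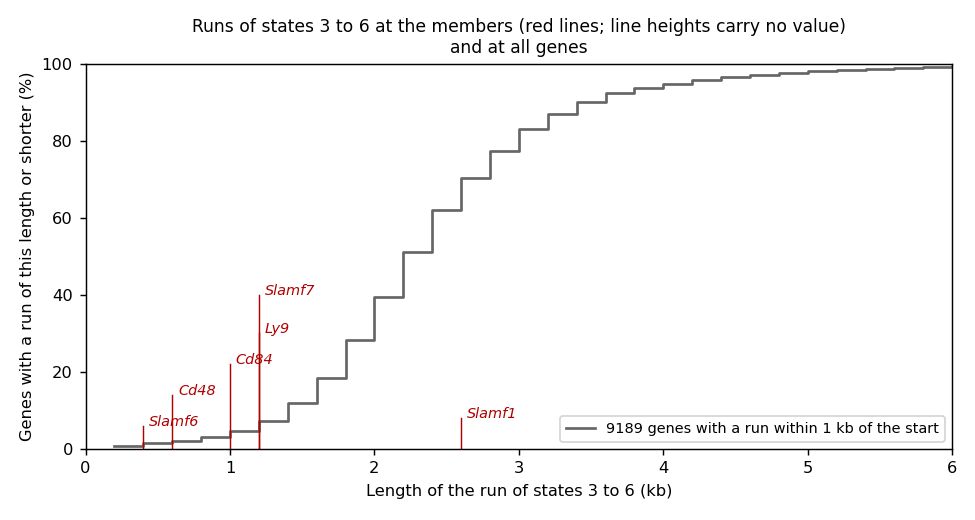
Length of the run of states 3 to 6 at each member (red lines, whose heights carry no value) and, as a step curve, the percentage of 9189 genes with a run of the given length in kb or shorter. The 5 members other than Slamf1 sit between 0.4 and 1.2 kb at the low end of the curve, and Slamf1 sits at 2.6 kb past its middle.

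The runs fell into different compositions by side of the cluster. On the side of Ly9, Slamf7 and Cd48, the runs consisted of states 4 and 6. The Ly9 run (171606401 to 171607600) held 1.0 kb of state 4 and 0.2 kb of state 6 and overlapped the upper end of the record, the Slamf7 run (171648201 to 171649400) held 1.0 kb of state 6 and 0.2 kb of state 4, and the Cd48 run (171682001 to 171682600) held 0.4 kb of state 6 and 0.2 kb of state 4. On the side of Slamf1, Cd84 and Slamf6, states 3 and 5 made up the runs, apart from the 3 bins of state 6 at Slamf1. The Cd84 run (171840401 to 171841400) and the Slamf6 run (171918001 to 171918400) were state 3 throughout. Within 1 kb of the start, states 3 or 5 were found at 3 of 5 members, against 42.4% of all genes, and states 4 or 6 at 2 of 5, against 39.3%. At the same distance, states 4 or 6 without 3 or 5 were found at Cd48 and Slamf7 and at 10.1% of all genes, and states 3 or 5 without 4 or 6 at Slamf1, Cd84 and Slamf6 and at 13.3% of all genes. All genes include those with no run, so these shares are lower than among genes with a run. Of the 9189 genes with any of states 3 to 6 at that distance, 1775 and 2320 had these compositions. The deposited files do not say what separates states 3 and 5 from 4 and 6, and the split of the cluster into sides was made after its values had been seen.

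The position of the run relative to the start also differed. At Cd48 (gene ID 12506, 171681245 to 171705258, plus strand), which encodes a lipid-anchored ligand of CD244 and CD2, the listed start at base 171681992 fell in the last bin of a state 2 segment of 1.2 kb, and the run began 9 bases downstream. A single bin decides whether this start counts as inside or outside states 3 to 6. At Slamf6 (gene ID 30925, 171917458 to 171948958, plus strand), a receptor of T, B and NK cells also called Ly108, the start was in state 16 and the run began 539 bases downstream. At Cd84 (gene ID 12523, 171839697 to 171890718, plus strand), a self-binding receptor of platelets and many leukocytes, the start was also in state 16, 704 bases before the run. Slamf7 (gene ID 75345, 171632403 to 171653037, minus strand), which encodes the NK and plasma cell receptor CRACC, had its start in state 6 at base 171648999, well inside its record. Its record ends lay in states 16 and 17. Ly9 (gene ID 17085, 171588613 to 171607410), which encodes the lymphocyte receptor CD229, had record ends in states 17 and 4.

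**Figure D3:**
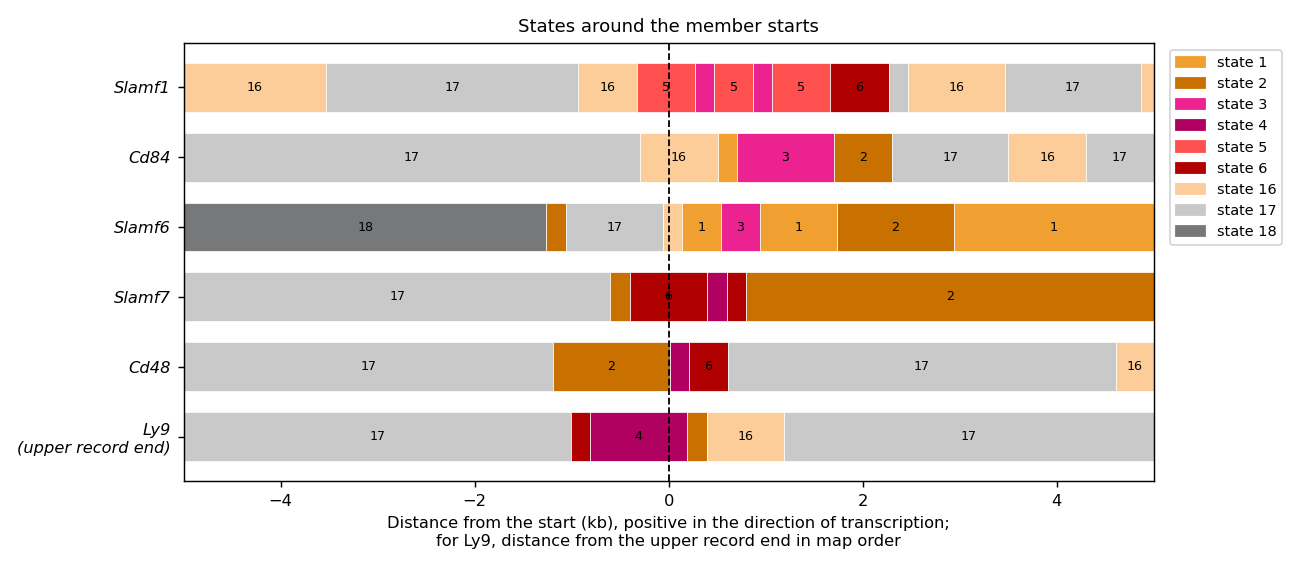
States within 5 kb of the listed start of 5 members, in kb and oriented in the direction of transcription, and of the upper record end of Ly9 in map order. Numbers are states. Slamf1 shows the run of states 5, 3 and 6 over its start, Cd84 and Slamf6 a segment of state 3 downstream of theirs, and Slamf7, Cd48 and Ly9 segments of states 4 and 6 with state 2 beside them.

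States 1 and 2 flanked most of the runs. State 2 covered 3% of the interval in 11 segments, 8.96 times its share of the map (0.335%), and state 1 covered 1.4% in 7 segments, 5.40 times its share (0.259%). Of the 11 state 2 segments, 8 lay on the side of Ly9, Slamf7 and Cd48, and of the 7 state 1 segments, 6 lay on the side of Slamf1, Cd84 and Slamf6. State 2 was found within 1 kb of the start of Cd48 and Slamf7, and at 5.00% of all starts. State 1 was found within 1 kb of the start of Cd84 and Slamf6, and at 4.50% of all starts. The Slamf1 run was bordered by neither, but by states 16 and 17.

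The longest state 2 segment of the locus lay inside Slamf7. It ran from 171643001 to 171648200, directly downstream of the start run, and was 5.2 kb long. Of the 17528 state 2 segments of the map, whose median was 0.4 kb, 7 were longer. State 2 made up 26.2% of the Slamf7 record. It was present in the records of 4 of 6 members (Slamf7, Cd48, Cd84 and Slamf6), against 25.4% of protein-coding genes, and state 1 in 2 of 6 (Cd84 and Slamf6), against 17.1%. Both shares are over records of all lengths, and longer records have more bins to count. The longest state 1 segment, 2.6 kb from 171920401 to 171923000, lay inside Slamf6, where state 1 made up 12.1% of the record. Of 10522 state 1 segments, 167 were longer. A noncoding RNA record, Gm37065 (171913532 to 171919356), overlaps the start of Slamf6, so the states there cannot be assigned to either gene.

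Beyond their starts the members differed more. Slamf1 and Cd84 held much of states 7 and 8, which over the map were enriched at 3′ ends. States 7 and 8 made up 40.5% of the Slamf1 record, 54.7% of Cd84 and 27.7% of Ly9, where all of it was state 8. In the records of Slamf7, Cd48 and Slamf6, 0% of bases was in state 7 or 8. At least a bin of state 7 or 8 was thus present in 3 of 6 members, against 49.8% of protein-coding genes. Among the 11492 protein-coding genes with records of 10 to 100 kb, the size range of the members, the median share was 15.8% and 37.3% had none. In that size range 20.3% of genes exceeded Cd84, 31.2% exceeded Slamf1 and 41.7% exceeded Ly9.

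State 7 was found at Slamf1 in 3 segments, the longest of 1.0 kb, and at Cd84 in 2. State 8 formed 9 segments in Slamf1 and 11 in Cd84, with longest segments of 4.0 and 6.6 kb, and 4 in Ly9, the longest of 1.8 kb. In Slamf1 they alternated with 11 segments of state 17, which made up 36.4% of the record, and 5 of state 16, which made up 16.4%. The 3′ ends of the Slamf1 and Cd84 records both lay in state 8. The 3′ ends of Cd48 and Slamf6 lay in state 18, and that of Slamf7 in state 16.

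Cd48 and Slamf6 were covered mostly by state 18. State 18 made up 62.7% of the Cd48 record and 74.2% of Slamf6, and none of the records of Slamf1, Cd84, Ly9 and Slamf7. It was present in 2 of 6 members, against 49.8% of protein-coding genes. In Cd48 it was a single segment of 29.6 kb that began at 171690201 inside the gene and continued past its 3′ end. That was the longest segment of the interval, and 3.39% of the 202237 state 18 segments of the map were at least as long. Between the run and this block, Cd48 lay in state 17 (23.3%) and state 16 (8.33%). Slamf7 had neither state 8 nor state 18, and 67.1% of its record was state 17, as was 67% of Ly9.

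**Figure D4:**
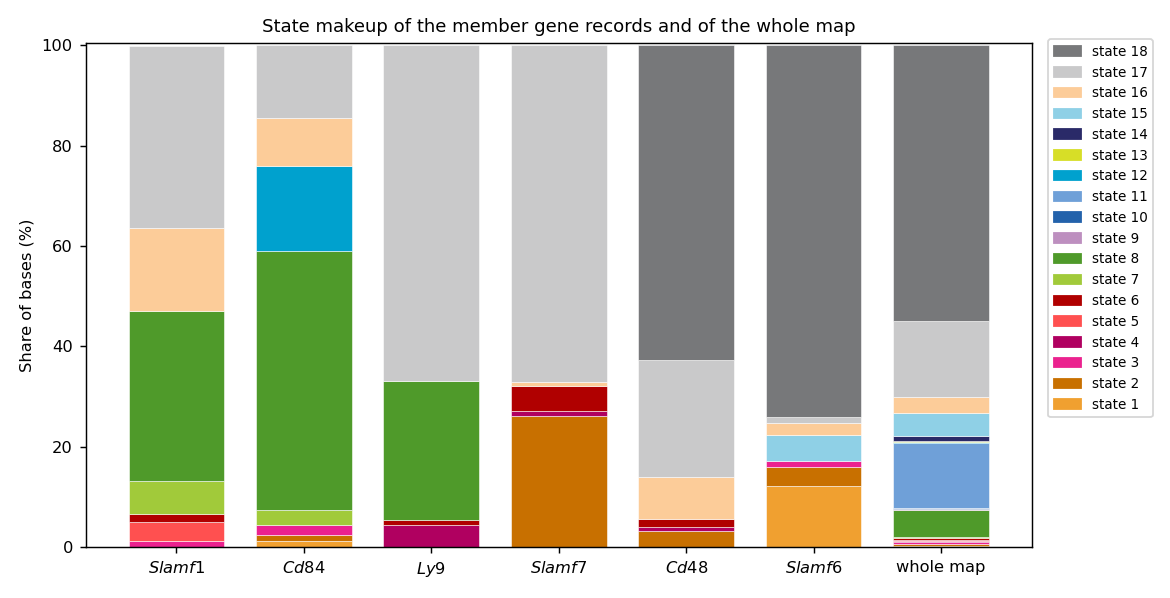
Share of bases in each of the 18 states, in percent, for the gene records of the 6 members and, at the right, for the whole map. Slamf1, Cd84 and Ly9 hold 27.7 to 54.7% of states 7 and 8, Slamf7 is mostly state 17 with 26.2% of state 2, and Cd48 and Slamf6 hold 62.7 and 74.2% of state 18.

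The records of Slamf1 and Cd48 shared 33.3% of their makeup, counted as the sum over 18 states of the smaller share of the 2. This was not low for the cluster. Cd48 shared less with Slamf7 (29.9%), Ly9 (25.2%) and Cd84 (24%), and more only with Slamf6. Slamf1 had a run of 2.6 kb, 40.5% of states 7 and 8 and 0% of state 18, and Cd48 a run of 0.6 kb, 0% of states 7 and 8 and 62.7% of state 18. The pairs with the most similar records were Cd48 and Slamf6 at 69.5%, Ly9 and Slamf7 at 69%, Ly9 and Slamf1 at 65.1%, and Slamf1 and Cd84 at 62.4%. Ly9 and Slamf6 were the least alike, at 1.27%. With 20 kb on each side, the genes elsewhere on the map most like Slamf1 were Hivep1, Ptafr and Hacd4, which shared 93.6, 93.5 and 93.5% of their makeup with it over 18 states. The median over all genes was 52.2%. The genes most like Cd48 were 4930512M02Rik, Vsig4 and Ly86, at 95.6, 95.2 and 93.5%, with a median of 47.9%.

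States 9 to 11 were missing from the whole locus. They covered 0% of the interval, against 14.4% of chromosome 1, 13.5% of the map and 12 to 18% of each of the 19 autosomes. Most of that share was state 11, with 13% of the map, against 0.182% for state 9 and 0.308% for state 10. State 11 held starts at 0.775 times its share of bases. No member had a record end in these states, against 23.9% of protein-coding genes. Their records held no bin of them (0 of 6), against 34.5% of protein-coding genes. With 20 kb on each side, 0 of 6 members held any bin of them, against 60.1% of protein-coding genes. The extended records of neighbouring members overlap, so these are not 6 separate observations. State 18 covered 28.1% of the interval, against 55% of the map, and state 17 covered 34.3% of the interval, against 15.2%. States 7 and 8 covered 14.4% of the interval, against 5.58% of the map, and state 16 covered 8.34%, against 3.17%. These contrasts with the map are not adjusted for the higher gene density of the interval. Within protein-coding records of the map, state 18 held 38.3% of bases, state 17 25.5%, state 16 4.51%, state 8 13.1% and state 7 0.841%. State 8 covered 13.3% of the interval, so its share was close to that within gene records. No member had both record ends in states 17 or 18 (0 of 6), against 19.6% of protein-coding genes. The interval was finely divided, with 47.5 segments per 100 kb, against 31.2 over the map and 30.4 to 36.5 on the autosomes.

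State 12 was concentrated at the far side of Cd84. It covered 4.55% of the interval, 20.6 times its share of the map (0.22%), in 10 segments. Of these, 9 lay between 171875201 and 171909000, from inside Cd84 into the gap before Slamf6, where states 7, 8 and 12 together covered 94.7% of 33.8 kb. State 12 made up 16.9% of the Cd84 record and 33.7% of the gap between Cd84 and Slamf6. Cd84 was the only member whose record held the state (1 of 6), against 7.71% of protein-coding genes. In the size range of 10 to 100 kb, 1.26% of genes had a larger share.

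The gaps between members differed from each other in makeup. The gap from Cd48 to Slamf1 (61.9 kb) held 54.5% of state 18 and 14.5% of state 15, and no state 7 or 8. The gap from Slamf1 to Cd84 (38.5 kb) held 59.7% of state 17, 13.8% of state 16 and 8.35% of state 8. The gap from Cd84 to Slamf6 (26.7 kb) held 28% of states 7 and 8. The gaps from Ly9 to Slamf7 (25 kb) and from Slamf7 to Cd48 (28.2 kb) held 39.2 and 46.7% of state 17 and 6.4 and 7.96% of state 2. The flank before Ly9 was 94% state 17, and the flank after Slamf6 was 57% state 18.

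The base sequence before the starts held few CpG, compared with genes that have a run of states 3 to 6, at the 5 members with a listed start. The 250 bases before the start are given for Slamf1, the only member with a run of common length, for Cd48, whose run begins just past the start, and for Slamf7, whose start lies beside the long state 2 segment. They are on GRCm38.p6, from RefSeq, read 5′ to 3′ on the strand of the gene, with CpG dinucleotides in capitals. Slamf1 is chr1:171766882-171767131 on the plus strand, Cd48 is chr1:171681742-171681991 on the plus strand, and Slamf7 is chr1:171649000-171649249 on the minus strand.
Slamf1: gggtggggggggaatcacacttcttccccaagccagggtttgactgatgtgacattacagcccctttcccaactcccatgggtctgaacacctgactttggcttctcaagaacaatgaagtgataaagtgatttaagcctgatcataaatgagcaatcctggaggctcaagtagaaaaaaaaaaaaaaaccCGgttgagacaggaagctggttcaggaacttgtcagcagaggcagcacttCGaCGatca
Cd48: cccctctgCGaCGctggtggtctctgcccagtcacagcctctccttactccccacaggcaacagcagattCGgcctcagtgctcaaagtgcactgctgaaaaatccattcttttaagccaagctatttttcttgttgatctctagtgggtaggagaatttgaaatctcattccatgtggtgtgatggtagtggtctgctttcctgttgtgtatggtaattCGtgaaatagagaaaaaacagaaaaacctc
Slamf7: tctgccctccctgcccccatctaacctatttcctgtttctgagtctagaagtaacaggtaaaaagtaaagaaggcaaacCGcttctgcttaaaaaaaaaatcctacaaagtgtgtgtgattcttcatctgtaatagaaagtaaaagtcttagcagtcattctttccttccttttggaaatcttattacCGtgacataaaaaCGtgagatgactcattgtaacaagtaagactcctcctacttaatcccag
These windows held 3 CpG at Slamf1, 4 at Cd48 and 3 at Slamf7, and the same window held 3 at Cd84 and 1 at Slamf6. The median over 17492 genes was 10, with 3 and 19 at the 25th and 75th percentiles. Genes with a run over 1.2 kb within 1 kb of the start had a median of 17 (8525 genes), those with a run of 1.2 kb or less a median of 9 (664 genes), and those without a run a median of 3 (8303 genes). The most found at a member, 4 CpG, was not exceeded at 34.2% of all genes and at 7.06% of genes with a run within 1 kb, so the members were low beside genes with a run and not unusual beside all genes. Of the 3493 genes whose run was 2.6 kb or longer, as at Slamf1, 104 had 3 CpG or fewer (2.98%).

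**Figure D5:**
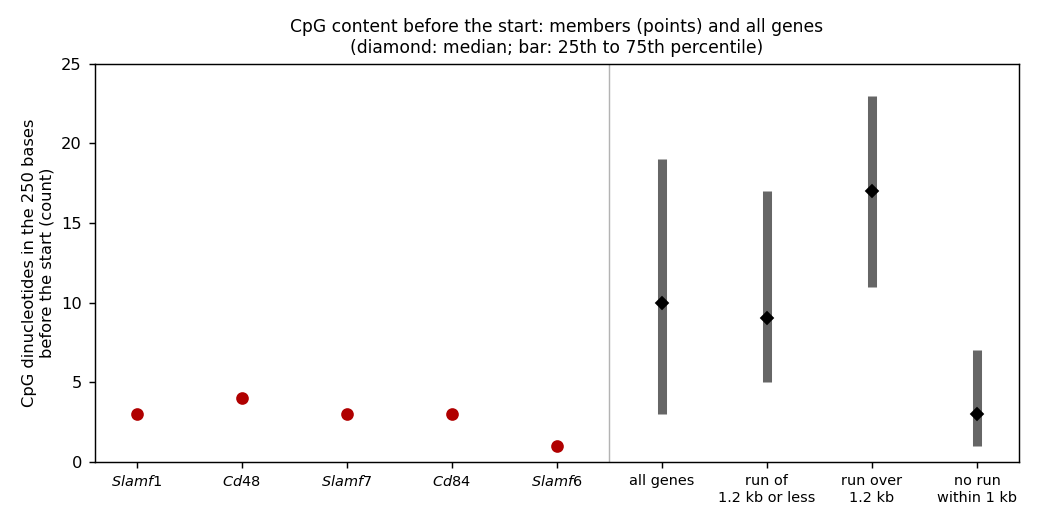
Number of CpG dinucleotides in the 250 bases before the start for the 5 members with a listed start (red points) and for all genes and 3 classes by run of states 3 to 6 (black diamond, median; grey bar, 25th to 75th percentile). The members hold 1 to 4 CpG, below the 25th percentile of 11 for genes with a run over 1.2 kb.

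Short motifs were searched for on both strands of the same 250 bases. The ETS form AGGAAG was found at Slamf1, with its first base 49 bases before the start, and at Slamf7, 85 bases before the start, and in 28.2% of all such windows. The RUNX form TGTGGT was found at Cd48, 76 bases before the start, and at Cd84, 45 bases before, and in 12.5% of all windows. The AP-1 form TGACTCA was found at Slamf7 and Cd84 and in 4% of all windows. CANNTG, the E box, was found at all 5 members and in 62.7% of all windows, and its match at Cd48 overlapped the RUNX match there. The GATA form GATAAG was found at 0 of 5 members and in 6.25% of all windows. A longer ETS form, CCGGAAG, was found at 0 of 5 and in 9.13% of all windows. The TATA form TATAAA was found at 0 of 5 and in 12.4% of all windows. A match is a description of letters and not a bound site.

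The family genes Cd244a, Slamf9 and Slamf8 had no run of states 3 to 6 within 1 kb of the listed start. Cd244a, the CD48 receptor that adjoins Ly9 and reaches into the interval, had its start and both record ends in state 17, which made up 80.5% of its record. It held a single bin of state 5, which began 2608 bases downstream of its start. Slamf9 and Slamf8, which lie apart from the cluster on chromosome 1, had their starts in states 1 and 16, with the nearest run 5841 and 26568 bases away. Cd2, whose product also binds CD48, lay in states 10 and 11 throughout (100% of states 9 to 11). The nearest protein-coding genes outside the interval were Itln1, with its start in state 18, and Vangl2, with its start in state 4.

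Genes that act downstream of the receptors lay in several of these states. Sh2d1a, which encodes SAP, had both record ends in state 18, and 92.8% of its record was in that state. Sh2d1b1 and Sh2d1b2, which encode the EAT-2 adaptors, had their starts in state 18, with the nearest run 21118 and 16871 bases away. Fyn, the kinase that SAP recruits, had its start in state 5 in a run of 2.8 kb, the phosphatase gene Ptpn11 (SHP-2) in state 6 in a run of 2.2 kb, and the inositol phosphatase gene Inpp5d (SHIP-1) in state 3 in a run of 3.0 kb. Ptpn6 (SHP-1) had its start in state 1, and its nearest run lay 1292 bases away. Other enzymes of the list, named after their values were seen, differed. The kinase genes Lck and Csk both started in state 17, with the nearest run 10760 and 7431 bases away. Plcg1 and Plcg2 started in state 6 in runs of 3 and 2.4 kb, and Prkcq and Inpp5k in state 5 in runs of 2.2 and 2.6 kb. Over a list of 20 SLAM signalling genes, 12 (60%) met the rule for record ends in states 3 to 6, against 47.6% of protein-coding genes, and 10 of the 15 with a listed start (66.7%) had the start itself in such a state, against 50.3%. A bin of state 7 or 8 lay in the record of 16 of the 20, against 49.8% of protein-coding genes. That share is over records of all lengths, and longer records have more bins to count. Among genes with records of 10 to 100 kb, 37.3% had no such bin, and some listed records, such as that of Fyn, were longer still.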

How the data were processed

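The authors deposited a segmentation of the mouse genome into 18 states in bins of 200 bp, as a dense and an expanded track, whose values are state numbers rather than counts, fractions or scores. Per the file headers, states were ordered by emission; ChromHMM appears only in file names, and neither the tracks behind the model, nor its emissions, nor a version of it is given in the sources used here. The submitters' processing notes name mm10, Bowtie2, deepTools, MACS2 and HOMER, without versions. The map is tied to the WT H3.3 group by its file name.

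Gene records and starts came from RefSeq tables of GRCm38.p6, the assembly of mm10. Genes starting in the first 3 Mb of an autosome or X were left out. The first listed start of each gene was used, and a run is an unbroken stretch of states 3 to 6. Shares were counted by base with Python 3.11.15, NumPy 2.4.6 and SciPy 1.17.1, and the functions were tested on simulated data. The members, lists and classes of states were chosen with earlier results of this map known. Named genes were the members, other SLAM genes, neighbours, a signalling list, Cd2 and the 3 genes most like Slamf1 and Cd48. Adjacent genes outside this rule were named after their values were seen. No test between groups was possible with 1 map. Protein sequences were not used here.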

Additional observations from a re-analysis of the deposited data

How the results depend on the processing

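Of 59 alternatives over 10 results, 44 kept the value within the 95% binomial (Wilson) interval of the bins or within 1.5 times the count, and 15 moved it. Some of the 44 could not have moved, so this count is no measure of stability. The expanded track gives the same state as the dense track in 100% of bins. Settings that changed only the background genes left the member counts as they were. Counting the 6 gene records alone gave 3.6% for states 3 to 6, 26.1% for states 7 and 8, 14.3% for states 1, 2 and 16, 29% for state 17 and 21.3% for state 18. A flank of 50 kb gave 12.5% for states 7 and 8 and 30.8% for state 18, no flank gave 31.5% for state 17, and whole segments at the edges gave 30.8% for state 18. With any bin within 1 kb of a record end, 5 of 6 members counted in states 3 to 6, against 51.8% of protein-coding genes, and with any bin of the record or within 1 kb of it 6, against 57.6%. For both ends in states 17 or 18, these settings gave 5 and 6 of 6, where 44.6 and 92.9% of protein-coding genes counted, and the most frequent state within 1 kb gave 1, where 21.7% did. By the bin at the end the count was 0. With any bin within 1 kb of the start, 5 of 5 members counted in states 3 to 6, where 52.5% of genes did, against 2 by the bin at the start. The states 9 to 11 stayed at 0% of the interval in all settings except the flank of 50 kb (0.174%). The Wilson interval covers counting of bins only and is too narrow, since it takes bins as independent and neighbouring bins share their state. No paired analysis was possible because the files hold a single map with no replicate and no knockout column, and no replicate could be left out.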

Other observations

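Other gene records of the interval, named after their values were seen, lay mostly in states 8, 12 or 18. The noncoding RNA gene Gm51686 lies within Cd84, and 82.3% of its record was state 8. The pseudogene record Gm52945 (171898064 to 171906254), in the gap between Cd84 and Slamf6, had 56.8% of state 8 and 26.9% of state 12. Reads of a pseudogene can belong to a near-identical copy elsewhere, and how the authors treated such reads is not given in the sources used here, so the states there are uncertain. Tma7-ps, a record of 0.46 kb held as protein-coding between Cd48 and Slamf1, lay wholly in the state 18 block that begins inside Cd48. The longest state 15 segment of the locus, 8.2 kb from 171721601 to 171729800, lay in the same gap, and 0.602% of the 103068 state 15 segments of the map were at least as long.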
